A study of Mus musculus with 12 samples.

Results

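Liver progenitor cells of 2 origins were compared for their response to 3D culture. All 12 RNA-seq libraries of the series enter the comparison, 3 for each of 4 groups named in the sample titles: hepCLiP cells in 2D and in 3D, and bilCLiP cells in 2D and in 3D. CLiP cells are progenitor-like cells grown from mature liver epithelium with small molecules. Per the labels, the source of hepCLiP was hepatocytes and that of bilCLiP was biliary epithelial cells (BEC), which line the bile ducts. The genotype is RosaConfetti, a multicolour reporter, for hepCLiP cultures 1 and 3. It is RosaYFP, a yellow fluorescent reporter, for hepCLiP culture 2 and all bilCLiP cultures. All cells were kept in a small hepatocyte medium with Y-27632 (a ROCK inhibitor), A83-01 (a TGF-beta receptor inhibitor) and CHIR99021 (a GSK3 inhibitor). In 2D they grew on collagen with 10% fetal bovine serum (FBS). For 3D they formed spheroids in microwells over 3 days without FBS and were then held 6 to 8 days in suspension, where oncostatin M was added at 10 ng/ml. Geometry, serum, time and oncostatin M, an interleukin 6 family cytokine that matures fetal hepatocytes, therefore changed together between 2D and 3D. The treatment tag of hepCLiP 2D culture 3 reads 3D and those of the 3 bilCLiP 3D cultures read 2D, so that groups follow the titles.

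Hepatocytes and cholangiocytes arise from a common fetal progenitor, the hepatoblast. Hepatocytes make plasma proteins, bile acids and lipids and detoxify drugs, whereas cholangiocytes form ducts and modify bile. When placed in flat culture, both lose part of their mature programme and gain features of progenitors, and aggregation with oncostatin M is a standard way to bring hepatocyte genes back. The measure used here is the difference of responses: the log2 fold change of 3D over 2D in bilCLiP minus that in hepCLiP. A value above 0 means a larger rise or a smaller fall in bilCLiP. Cultures of one origin with the same number were treated as pairs, since their deviations from the group means went together in all 6 pairs. Levels are CPM, counts scaled to a common library size, ± values are standard errors (SE) over the 12 libraries, and a gene was called at an adjusted p under 0.05. By its genotype label, hepCLiP culture 2 (RosaYFP) did not come from the same animal as the other hepCLiP cultures (RosaConfetti). No label says whether those other hepCLiP cultures, or the bilCLiP cultures, came from separate animals. The p-values measure the spread between these samples. In hepCLiP this spread includes the difference of genotype, and in bilCLiP it may be technical.

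Libraries held 16142365 to 21253382 counts. Krt19, the defining cholangiocyte keratin, was abundant in 2D cultures of both origins, at 476 to 1100 CPM in hepCLiP and 507 to 1034 CPM in bilCLiP. Alb, the defining hepatocyte gene, ran from 19.9 to 691 CPM in hepCLiP 2D and from 0.861 to 69.3 CPM in bilCLiP 2D, so that neither marker separated the origins in 2D. Xist, the X-inactivation RNA, stood at 812 to 1163 CPM in all bilCLiP libraries and at 0.284 CPM or less in all hepCLiP libraries, and the Y-linked Ddx3y was counted only in hepCLiP, where culture 2 had 0.0455 CPM or less. Origin, Xist status and, apart from hepCLiP culture 2, genotype cannot be told apart in this design. Of other cell types, the defining markers Pecam1 (endothelium), Adgre1 and Ptprc (leukocytes) and Col1a2 (fibroblasts) stayed at or below 0.293 CPM in every library. Other members of those lists were higher. On the endothelial list, Sox17 reached 87.2 CPM and Stab1 22.6 CPM. On the leukocyte list, Cd14 ran from 102 to 719 CPM over all libraries, while Csf1r reached 16.9 CPM and Cd74 14.6 CPM. The summed level of the 13 endothelial markers was 19.7 to 80.6 CPM in hepCLiP 2D and 25.1 to 93.4 CPM in bilCLiP 2D, and 12.3 to 23.6 CPM and 7.97 to 16.9 CPM in 3D. The summed level of the 15 fibroblast and stellate markers was 9.03 to 302 CPM in hepCLiP 3D and 27.7 to 51.3 CPM in bilCLiP 3D. The highest of these values came from Dcn in hepCLiP 3D culture 1. A mesothelial list was not low. Its 9 markers, Krt19 among them, summed to 891 to 2205 CPM in hepCLiP 2D and 1337 to 1655 CPM in bilCLiP 2D. In 3D they summed to 66.4 to 153 CPM and 156 to 254 CPM. Msln, the mesothelin gene of that list, ran from 333 to 989 CPM over the 2D libraries and from 5.42 to 27.8 CPM over the 3D ones. In bulk RNA, fewer cells of a type and less RNA per cell cannot be told apart.

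The responses of the origins were close over the 14798 genes tested. In hepCLiP, 3317 genes were higher in 3D (22.4% of genes tested) and 3656 were lower (24.7%). In bilCLiP, 3206 were higher (21.7%) and 3177 lower (21.5%). A total of 5239 genes (35.4%) were called in both origins in one direction, 2593 higher and 2646 lower, against 5 genes (0.0338%) called in opposite directions. Across genes, which are not independent replicates, the fold changes of the origins had a Pearson correlation of 0.913 and a Spearman correlation of 0.860, with a slope of 0.98 for bilCLiP on hepCLiP. Pairs of different origin were about as similar as pairs of one origin. The 3D minus 2D values correlated over genes at 0.871 to 0.883 between hepCLiP pairs, at 0.865 to 0.919 between bilCLiP pairs and at 0.806 to 0.914 (median 0.865) between origins.

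**Figure D1:**
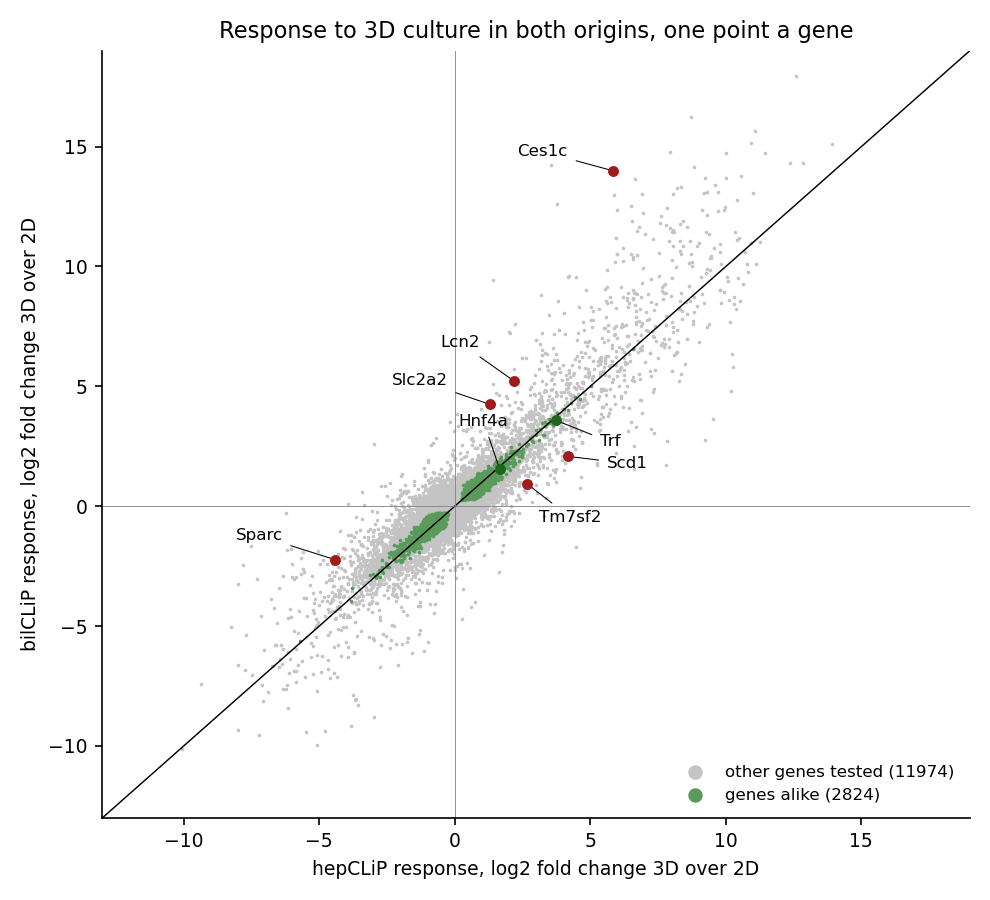
Log2 fold change of 3D over 2D in hepCLiP (horizontal) and in bilCLiP (vertical), one point for each of the 14798 genes tested, with the line of equal response. The 2824 genes alike (green) lie along the line, and named genes above it (Ces1c, Lcn2, Slc2a2, Sparc) or below it (Scd1, Tm7sf2) lean to one origin without passing the adjusted test.

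To name genes that respond alike, a bound on the difference was asked for, since a difference that misses a test is not shown to be absent. Genes called in both origins in one direction, with a 95% interval of the difference inside 2-fold either way, numbered 2824 (19.1% of genes tested, 53.9% of the 5239). Of these, 1306 were higher in 3D (8.83%) and 1518 lower (10.3%). The interval lay inside 2-fold for 7682 genes (51.9%) whatever their calls, and for 68.5% of the 11135 genes whose highest group mean reached 5 CPM. Low genes had wide intervals: the median half-width was 0.53 on the log2 scale at 5 CPM or more and 1.70 below. For some genes with few counts, however, the interval was too narrow. Pik3r5 had 14 counts over hepCLiP 2D and 10 over bilCLiP 2D. Its SE was 0.72 and 0.71 for the responses but 0.29 for their difference, although the responses share no library. Some genes with few counts may therefore be counted as alike without a sound bound. With a bound of 1.5-fold, genes alike numbered 1186.

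No gene passed the test of the difference itself. By edgeR's quasi-likelihood test with Benjamini-Hochberg adjustment, 0 genes (0%) had an adjusted p under 0.05, and the smallest adjusted p was 0.287. At an unadjusted p under 0.05 there were 1236 genes (8.35%), 760 with a difference above 0 (5.14%) and 476 below 0 (3.22%). With DESeq2's size factors (RLE) in edgeR this split was 627 to 573. DESeq2 with the same pairs called 71 of 11642 genes (0.61%), 43 above 0 and 28 below, and limma voom and limma-trend called 0. Without the filter on low counts edgeR called 15 genes, 13 of them among the 71 of DESeq2, and without hepCLiP pair 2 it called 12. Differences named below are therefore leanings: estimates whose pair values mostly did not overlap between origins but which the main test did not call. Among the 71 DESeq2 genes, 17 were higher in 3D in both origins with a larger rise in bilCLiP, 11 were higher in both with a larger rise in hepCLiP, 8 were lower in both with a larger fall in hepCLiP and 4 with a larger fall in bilCLiP. Another 17 were called in hepCLiP only, 11 in bilCLiP only and 3 in opposite directions.

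A call in one origin and not in the other is no test of a difference. Of the 2868 genes called in one origin and not the other, 1729 in hepCLiP (11.7%) and 1139 in bilCLiP (7.7%), 91.3% had estimates of the same sign in both origins. The 95% interval of the difference lay inside 2-fold for 1421 of them. By edgeR 0 of them were apart, 592 had an unadjusted p under 0.05, and DESeq2 called 28.

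Among genes that rose alike were regulators and products of the mature hepatocyte. Hnf4a, the nuclear receptor that maintains hepatocyte identity, was at 332, 219 and 378 CPM in the hepCLiP 2D cultures 1 to 3 and at 997, 1047 and 834 CPM in 3D. In bilCLiP it was at 135, 299 and 238 CPM in 2D and at 571, 711 and 579 CPM in 3D. All 6 pairs rose and the groups of 2D and 3D did not overlap in either origin. The log2 fold change was 1.66 ± 0.25 in hepCLiP and 1.53 ± 0.25 in bilCLiP, with a difference of -0.13 (95% interval -0.93 to 0.68). Trf, the plasma iron carrier transferrin, rose by 3.73 ± 0.28 and 3.58 ± 0.28 and was the only 1 of 35 secreted plasma proteins that was alike. Cpn1, a carboxypeptidase subunit of plasma, rose by 4.44 and 4.56, Cyp3a13, a drug-oxidising P450, by 4.02 and 4.05, and Selenbp1, a selenium-binding methanethiol oxidase, by 4.16 and 4.02 in hepCLiP and bilCLiP. Il6ra, the interleukin 6 receptor, rose by 3.49 and 3.65, and Stat3, the transcription factor that oncostatin M activates, by 1.25 and 0.89. Of the alike genes named in this paragraph, only Stat3 stayed alike under every alternative setting described further below.

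Many genes of fatty acid oxidation rose alike. Of 28 members tested, 20 were higher in 3D in each origin, beside 22.4% of all genes in hepCLiP and 21.7% in bilCLiP. Among the 28, 13 were alike, all 13 higher, against 8.83% of all genes. The median difference of the list was -0.03, beside 0.06 over all genes. Acaa2, a thiolase of mitochondrial beta-oxidation, was at 52.1, 55.9 and 49.2 CPM in hepCLiP 2D and 389, 386 and 368 CPM in 3D. BilCLiP levels were 40.6, 56.5 and 48.3 CPM in 2D and 314, 424 and 333 CPM in 3D. The log2 fold changes were 2.86 ± 0.10 and 2.88 ± 0.10, with an interval of the difference from -0.30 to 0.33. Ppara, the nuclear receptor that drives these genes, rose by 3.61 and 3.39, and Acsl1, an acyl-CoA synthetase, by 2.45 and 2.32. Of the unfolded protein and stress response, 16 of 30 members were alike and higher, beside 8.83% of all genes, and 2 alike and lower, beside 10.3%. Xbp1, a transcription factor of secretory cells, rose by 2.23 ± 0.17 and 2.28 ± 0.17, the co-chaperone Dnajb9 by 2.53 and 2.26, and Herpud1, of endoplasmic reticulum degradation, by 2.09 and 2.29. Of amino acid metabolism, Cbs of transsulfuration rose by 3.62 and 3.38 and Ahcy of methionine turnover by 3.13 and 3.21.

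Genes that fell alike included many contractile genes and p53 targets. Of 26 actin and contractile genes tested, 22 were lower in 3D in both origins and 16 were alike, against 10.3% of all genes. Itgb3, an integrin chain that binds vitronectin, was at 68.0, 24.4 and 39.4 CPM in hepCLiP 2D and 10.4, 2.48 and 5.14 CPM in 3D. The bilCLiP cultures stood at 16.8, 43.0 and 71.2 CPM in 2D and 2.90, 5.34 and 8.30 CPM in 3D. Cultures 1 and 3 were ordered differently in the origins, yet each pair fell by a similar amount, with log2 fold changes of -2.96 ± 0.17 and -2.90 ± 0.17. Col4a1, a basement membrane collagen, fell by 2.86 and 2.90 on the log2 scale in hepCLiP and bilCLiP, and Anxa3, an annexin, by 2.92 and 3.01. Tpm1, a tropomyosin, fell by 2.00 and 1.78. Smad7, a TGF-beta target and feedback inhibitor, fell by 3.03 and 2.82. Of 29 YAP and TEAD targets, 21 were lower in hepCLiP, beside 24.7% of all genes, and 23 in bilCLiP, beside 21.5%. Alike and lower were 10, beside 10.3%, among them the receptor kinase Axl (-2.68 in hepCLiP, difference -0.02) and the angiomotin Amotl2 (-2.14, difference 0.22). Of 24 p53 targets, 11 were alike and lower, beside 10.3% of all genes, and 2 alike and higher, beside 8.83%, with Ccng1 falling by 2.00 and 1.76. Igf1r, the IGF1 receptor, fell by 1.75 in both origins, with an interval of the difference from -0.37 to 0.37.

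Cholesterol synthesis genes had larger estimated rises in hepCLiP than in bilCLiP, with nearly every member on one side. Cells make cholesterol from acetyl-CoA through the mevalonate and lanosterol steps, and SREBP2 (encoded by Srebf2) switches these genes on when sterols are low. All 25 genes of the cholesterol list were tested. In hepCLiP 23 were higher in 3D, beside 22.4% of all genes, and in bilCLiP 11, beside 21.7%. Calls in hepCLiP only numbered 12, beside 11.7% of all genes. The median log2 fold change was 1.37 in hepCLiP and 0.54 in bilCLiP. The difference was below 0 for 24 of 25, beside 42.9% of all genes (57.1% lay above 0), and its median was -0.91, beside 0.06. Pair values did not overlap, with bilCLiP below, for 15 of 25, beside 6.24% of all genes. An unadjusted p under 0.05 below 0 was reached by 19 of 25, beside 3.22%. By edgeR 0 of 25 passed after adjustment and DESeq2 called 8. By pair, the median response of the list was 1.49, 1.04 and 1.47 in hepCLiP and 0.66, 0.31 and 0.28 in bilCLiP on the log2(CPM + 1) scale. The lowest hepCLiP pair thus lay above the highest bilCLiP pair. The gap between origins was in 3D: bilCLiP minus hepCLiP had a list median of 0.15 in 2D and -0.74 in 3D, where all 25 estimates were below 0. The summed level was 1430 to 3021 CPM in hepCLiP 2D and 1431 to 3052 CPM in bilCLiP 2D. In 3D it was 3576 to 6904 CPM and 2454 to 3409 CPM, without overlap.

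Tm7sf2, the sterol C14 reductase, was at 13.6, 21.5 and 12.1 CPM in hepCLiP 2D and 99.6, 144 and 62.0 CPM in 3D. In bilCLiP it was at 13.9, 28.9 and 23.3 CPM in 2D and 32.4, 44.3 and 46.1 CPM in 3D. It rose in both origins, and every hepCLiP 3D library lay above every bilCLiP 3D library. Its log2 fold changes were 2.66 ± 0.16 and 0.94 ± 0.15, and the difference was -1.72 ± 0.21 (adjusted p = 0.287 by edgeR and 5.18e-07 by DESeq2). Insig1, which holds the SREBP complex back in the endoplasmic reticulum and is itself an SREBP target, was at 88.1, 133 and 37.3 CPM in hepCLiP 2D and 457, 414 and 175 CPM in 3D. BilCLiP levels were 51.9, 133 and 111 CPM in 2D and 94.1, 166 and 154 CPM in 3D. The 2D ranges overlapped and the 3D ranges did not, with a difference of -1.53 ± 0.24 (adjusted p = 0.287 by edgeR and 3.62e-05 by DESeq2). Hsd17b7, of sterol demethylation, rose in hepCLiP by 1.26 ± 0.15 and had an estimate of 0.09 ± 0.15 in bilCLiP. Hmgcs1, the synthase that makes HMG-CoA, rose in hepCLiP by 1.35 ± 0.20, with -0.11 ± 0.19 in bilCLiP, and Sqle, squalene epoxidase, by 1.09 ± 0.20, with 0.18 ± 0.20. Srebf2 itself was called in neither origin (-0.07 ± 0.17 and -0.28 ± 0.17). In the same list, 2 members were alike: Ebp, the sterol isomerase, which rose by 1.69 and 1.77, and Stard4, a sterol carrier, which rose by 0.88 and 0.87.

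**Figure D2:**
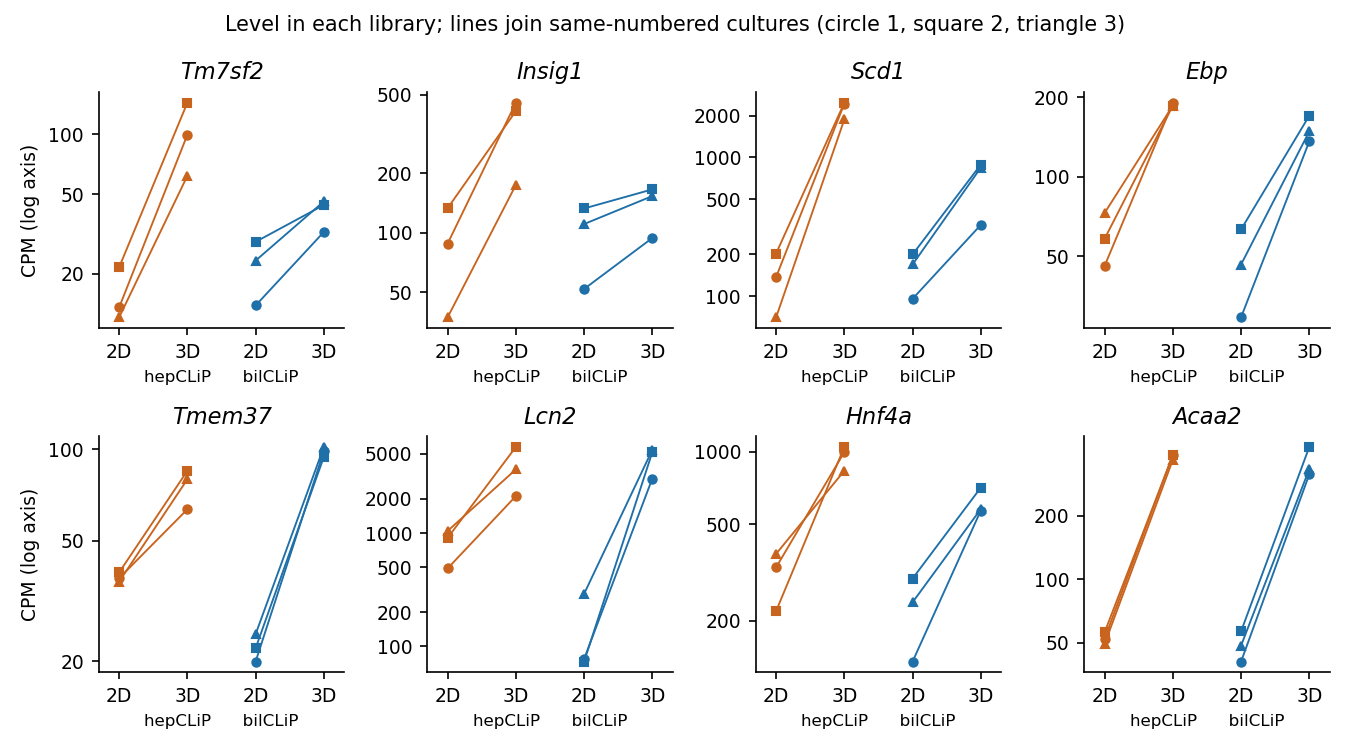
Level of 8 genes in each library (CPM, log axis), 2D and 3D, hepCLiP in orange and bilCLiP in blue, lines joining same-numbered cultures. Tm7sf2, Insig1 and Scd1 start at overlapping levels and end higher in hepCLiP, Ebp, Hnf4a and Acaa2 climb in parallel, and Tmem37 and Lcn2 move by more in bilCLiP.

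The sequence upstream of these genes is shown to compare 3 sterol genes that leaned apart (Insig1, Hmgcs1, Hsd17b7) with one that was alike (Ebp). Each line gives the 200 bases from 250 to 51 bases before the annotated start, 5′ to 3′ on the gene's strand, from RefSeq on GRCm38.p6 (the count tables use GRCm39). Capitals mark the CCAAT box, which binds NF-Y, and the sterol regulatory element searched as TCACNCCAC, which binds SREBP, both on either strand. The windows are chr5:28071162-28071361 (plus strand) for Insig1, chr13:119690101-119690300 (plus strand) for Hmgcs1, chr1:169969256-169969455 (minus strand) for Hsd17b7 and chrX:8193563-8193762 (minus strand) for Ebp.
Insig1: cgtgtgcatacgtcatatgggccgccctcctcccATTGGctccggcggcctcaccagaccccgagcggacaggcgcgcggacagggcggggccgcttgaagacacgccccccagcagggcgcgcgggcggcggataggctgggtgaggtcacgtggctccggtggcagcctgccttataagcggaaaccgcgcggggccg
Hmgcs1: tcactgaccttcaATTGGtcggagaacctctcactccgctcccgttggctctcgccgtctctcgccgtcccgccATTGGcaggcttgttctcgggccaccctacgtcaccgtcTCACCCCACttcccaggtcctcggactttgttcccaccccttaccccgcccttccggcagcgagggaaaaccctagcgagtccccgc
Hsd17b7: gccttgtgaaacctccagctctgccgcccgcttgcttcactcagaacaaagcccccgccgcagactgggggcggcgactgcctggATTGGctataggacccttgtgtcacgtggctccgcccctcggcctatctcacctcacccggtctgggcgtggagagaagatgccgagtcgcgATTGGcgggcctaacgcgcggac
Ebp: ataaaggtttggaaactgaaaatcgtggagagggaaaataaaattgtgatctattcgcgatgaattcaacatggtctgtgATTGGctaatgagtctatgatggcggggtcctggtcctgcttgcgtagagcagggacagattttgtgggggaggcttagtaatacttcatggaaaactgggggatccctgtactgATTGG
Insig1 held 1 CCAAT box and the others 2 each, all written here in the reverse orientation as ATTGG, and Hmgcs1 held 1 sterol regulatory element. Of 25 list members, 17 matched a RefSeq entry, and a CCAAT box was present in 11 of the 17 (64.7%), beside 28.9% of 27025 genes with such a window. The sterol element was found in 1 of 17 (5.88%), beside 0.799%. Ebp, which was alike, carried as many CCAAT boxes as Hmgcs1, so that the count of this motif did not separate these 4 windows by response. A match is a description of the letters in these windows only.

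Fatty acid and triglyceride synthesis leaned the same way, less evenly. Of 22 members, 13 were higher and 2 lower in 3D in hepCLiP, beside 22.4% and 24.7% of all genes. In bilCLiP 9 were higher and 3 lower, beside 21.7% and 21.5%. The difference was below 0 for 18 of 22, beside 42.9% of all genes, with a median of -0.52. Pair values did not overlap, with bilCLiP below, for 11 of 22, beside 6.24%, and 6 were alike, beside 19.1%. By edgeR 0 of 22 passed after adjustment (6 at an unadjusted p under 0.05) and DESeq2 called 1. Scd1, the stearoyl-CoA desaturase that makes monounsaturated fatty acids, was at 137, 203 and 70.4 CPM in hepCLiP 2D and 2443, 2480 and 1879 CPM in 3D. The bilCLiP cultures stood at 95.7, 200 and 169 CPM in 2D and 327, 888 and 845 CPM in 3D. Its rise was 4.17 ± 0.25 in hepCLiP and 2.08 ± 0.23 in bilCLiP on the log2 scale, and the difference of -2.08 ± 0.31 had an adjusted p of 0.287 by edgeR and 3.32e-07 by DESeq2. The desaturase Fads1 rose in hepCLiP by 0.89 ± 0.15, with 0.14 ± 0.15 in bilCLiP. The elongase Elovl6 fell in bilCLiP by 0.89 ± 0.16, with -0.07 ± 0.16 in hepCLiP. In contrast, Dgat2, which completes triglycerides, rose alike by 3.50 and 3.45, Agpat2, an earlier acyltransferase, by 1.38 and 1.42, and Srebf1, the regulator of this list, by 1.00 and 0.82.

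Estimates below 0 were also frequent in the unfolded protein and stress response, at 23 of 30 members, beside 42.9% of all genes. Of the 30, 6 lay below 0 with an unadjusted p under 0.05, beside 3.22% of all genes, and 0 lay above 0 with one, and the list median was -0.16. Of 21 hypoxia genes, 15 lay below 0, beside 42.9% of all genes, and 2 did so at an unadjusted p under 0.05, beside 3.22%. The interval of the difference lay inside 2-fold for 47.6% of the 21, beside 51.9% of all genes. Single genes outside these lists also leaned below 0 or differed in level. Cldn6, a tight junction claudin of embryonic epithelia, was at 66.0, 109 and 26.3 CPM in bilCLiP 2D and at 0.988, 2.58 and 0.522 CPM in 3D. In hepCLiP it did not exceed 0.971 CPM in any library, with 22 counts over the 2D libraries and 7 over the 3D ones. It fell in bilCLiP by 5.67 ± 0.22. Levels in hepCLiP 2D left almost no room for a fall, so that the difference of its responses is not read here. Onecut2, a transcription factor of the hepatoblast and of bile duct cells, rose in hepCLiP from 59.4, 27.7 and 23.9 CPM to 156, 74.4 and 69.6 CPM. In bilCLiP it was already at 118, 108 and 103 CPM in 2D and stood at 155, 104 and 147 CPM in 3D. The difference was -1.17 ± 0.18, and DESeq2 gave an adjusted p of 0.000195. Ube2l6, an enzyme that attaches the interferon-induced tag ISG15, rose by 4.37 in hepCLiP and 2.75 in bilCLiP. Of the insulin receptor substrates, Irs2 fell by 1.08 and 1.74, and Irs1 fell in bilCLiP by 1.20 ± 0.14, with -0.17 ± 0.14 in hepCLiP. Vegfa, the endothelial growth factor, rose in hepCLiP by 0.99 ± 0.19, with -0.13 ± 0.19 in bilCLiP. Cd14, a lipopolysaccharide co-receptor kept on the leukocyte list, rose by 2.38 and 1.25 and made up most of that list's summed level, which was 595 to 732 CPM in hepCLiP 3D and 286 to 455 CPM in bilCLiP 3D.

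Leanings above 0 included genes with a larger rise in bilCLiP. Lcn2, the iron-siderophore binding lipocalin of the acute phase, was at 77.4, 73.5 and 291 CPM in bilCLiP 2D and 3022, 5165 and 5418 CPM in 3D. In hepCLiP it was at 487, 906 and 1043 CPM in 2D and 2116, 5736 and 3635 CPM in 3D. The 2D ranges did not overlap and the 3D ranges did, and the rise was 5.22 ± 0.42 in bilCLiP against 2.19 ± 0.36 in hepCLiP. The difference of 3.02 ± 0.50 had an adjusted p of 0.325 by edgeR and 3.11e-07 by DESeq2. Slc2a2, the hepatocyte glucose transporter GLUT2, was at 5.32, 3.09 and 53.2 CPM in hepCLiP 2D and 10.9, 13.8 and 96.3 CPM in 3D. BilCLiP levels were 2.45, 2.29 and 1.87 CPM in 2D and 62.6, 51.7 and 21.1 CPM in 3D. HepCLiP culture 3 was the highest library in both cultures, and the difference of responses was 2.94 ± 0.44 (adjusted p = 0.287 by edgeR and 8.98e-07 by DESeq2). Tmem37, a calcium channel gamma-like membrane protein, rose by 1.00 ± 0.11 in hepCLiP and 2.15 ± 0.12 in bilCLiP. Hamp, the iron hormone hepcidin, fell in hepCLiP by 2.58 ± 0.41, with 0.85 ± 0.47 in bilCLiP. Its levels were uneven, from 1.32 to 350 CPM in hepCLiP 2D and from 0 to 5.42 CPM in bilCLiP 2D.

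Other genes fell by less in bilCLiP. Sparc, a collagen-binding matrix protein, was at 27.5, 22.5 and 16.0 CPM in hepCLiP 2D and 1.03, 1.70 and 0.417 CPM in 3D. The bilCLiP cultures stood at 460, 296 and 354 CPM in 2D and 102, 58.1 and 78.8 CPM in 3D. Every bilCLiP 3D library lay above every hepCLiP 2D library, and the falls were 4.42 ± 0.25 and 2.23 ± 0.18. The difference was 2.19 ± 0.31, with an adjusted p of 0.287 by edgeR and 9.79e-05 by DESeq2. Filip1l fell by 2.28 in hepCLiP and 1.00 in bilCLiP, and Cryab, a small heat shock protein, by 3.20 and 2.02. Vim, the mesenchymal filament vimentin, fell by 3.02 and 1.79, Tgfb2, a TGF-beta ligand, by 3.96 and 2.96, and Tnfaip3, an inhibitor of NF-kB signalling, by 2.12 and 1.03. Col16a1, a fibril-associated collagen, fell in hepCLiP from 10.7, 18.7 and 17.4 CPM to 1.17, 5.32 and 3.96 CPM. In bilCLiP it was at 31.0, 7.07 and 7.93 CPM in 2D and at 31.0, 8.15 and 11.5 CPM in 3D, with an estimate of 0.24 ± 0.24. Cln6, an endoplasmic reticulum protein needed for lysosomal enzyme transport, fell in hepCLiP by 0.96 ± 0.15, with 0.33 ± 0.15 in bilCLiP. The part of the fibroblast marker levels given above in these differences was not tested.

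**Figure D3:**
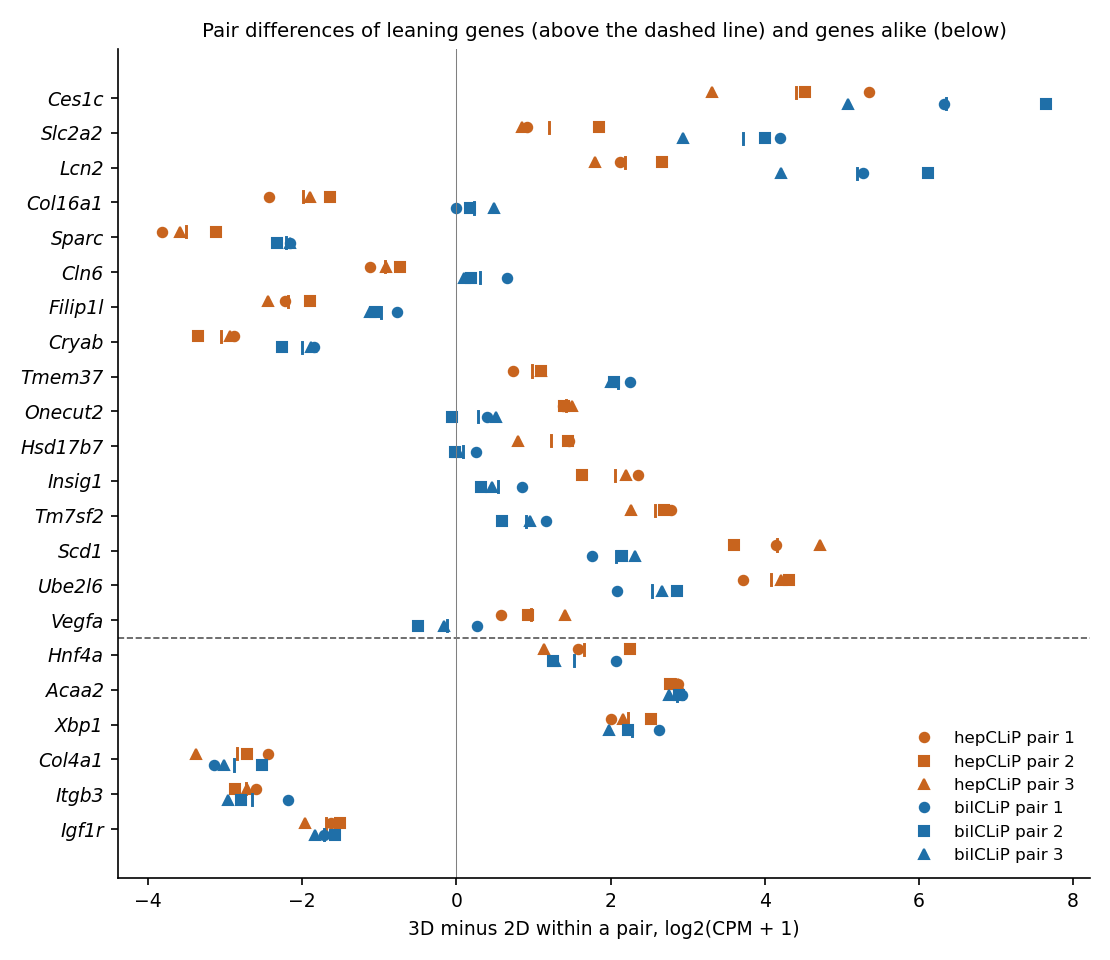
3D minus 2D within each pair on the log2(CPM + 1) scale for 16 leaning genes (above the dashed line) and 6 genes alike (below it), with bars at the mean of 3 pairs, hepCLiP in orange and bilCLiP in blue. Pairs of the origins lie apart in the upper part, except for Ces1c, and mix in the lower part, as for Acaa2 and Igf1r.

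Mature hepatocyte functions rose in both origins, with wide intervals for the difference. Of 35 secreted plasma proteins, 34 were higher in 3D in each origin, beside 22.4% of all genes in hepCLiP and 21.7% in bilCLiP. The same shares of all genes stand beside the counts of higher genes in the lists that follow. Their median log2 fold change was 6.80 in hepCLiP and 9.38 in bilCLiP (8.44 with genes at 0 counts set to their bound), and the median difference was 1.19. The gap between origins (bilCLiP minus hepCLiP, list median) was -1.58 in 2D and -0.54 in 3D, so that bilCLiP started lower and ended closer. Of 38 cytochrome P450 and drug metabolism genes, 32 and 33 were higher, with a median difference of 1.29 (0.92 with genes at 0 counts set to their bound). Of 35 urea cycle and amino acid genes 31 and 32 were higher (median difference 0.45), of 37 acute phase and STAT3 targets 33 and 32 (0.65), and of 20 bile acid genes 18 in each (0.06). Pair medians of the plasma proteins overlapped between origins: they were 6.34, 7.73 and 5.71 in hepCLiP and 7.16, 7.27 and 6.53 in bilCLiP on the log2(CPM + 1) scale. For the bile acid list they did not overlap, at 3.46, 3.42 and 3.17 in hepCLiP and 2.03, 2.99 and 1.99 in bilCLiP, while its median fitted difference was near 0. With RosaYFP libraries only, which leaves hepCLiP pair 2, the median difference was -0.0063 for plasma proteins, 0.17 for P450 genes, -0.17 for the urea cycle list and 0.22 for the acute phase list. Without hepCLiP pair 3 it was 0.66 for plasma proteins, 0.64 for P450 genes and 0.013 for the urea cycle list. Without bilCLiP pair 2 the urea cycle median was -0.20, with 17 of 35 above 0, and without bilCLiP pair 1 the acute phase median was 0.11, with 21 of 37 above 0.

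Alb was at 142, 19.9 and 691 CPM in hepCLiP 2D and 26620, 21497 and 23141 CPM in 3D. BilCLiP levels were 0.861, 49.9 and 69.3 CPM in 2D and 6026, 19965 and 22893 CPM in 3D. The 2D levels spread over more than an order of magnitude within each origin, and the difference of 2.04 ± 1.74 was within this spread (95% interval -2.12 to 6.20). Apoa1, the main HDL protein, had a difference of 2.23 ± 1.23, Ttr, the thyroxine carrier, of 0.84 ± 1.32, and Cebpa, a hepatocyte transcription factor, of 0.77 ± 0.38. Itih3, a hyaluronan-binding inhibitor chain of plasma, was narrower: it was at 2.64, 1.18 and 2.60 CPM in hepCLiP 2D and 3161, 2282 and 2923 CPM in 3D. The bilCLiP cultures stood at 0.172, 0.155 and 0.364 CPM in 2D and 1102, 1277 and 2613 CPM in 3D. The fitted difference was 2.38 ± 0.32 (adjusted p = 0.287 by edgeR and 0.000551 by DESeq2), while on the log2(CPM + 1) scale, which flattens levels below 1 CPM, the pairs overlapped. Serpina1a, an alpha-1-antitrypsin gene with near-identical copies whose reads could be shared among them, was at 49.0, 0.455 and 81.4 CPM in hepCLiP 2D and at 0.155 CPM or less in bilCLiP 2D. Its difference was 7.12 ± 1.83, and the adjusted p of edgeR was 0.499.

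For the lowest genes only bounds were available in bilCLiP 2D. Ces1c, a secreted carboxylesterase, had 0 counts in all bilCLiP 2D libraries and 79.3, 199 and 32.7 CPM in 3D, at least 2479.9-fold higher against a floor of 3 counts summed over the group. In hepCLiP it rose from 1.06, 1.23 and 0.150 CPM to 83.5, 50.2 and 10.5 CPM, a fold of 57.5. Saa4, a constitutive serum amyloid A, also had 0 counts in bilCLiP 2D and was at least 4267-fold higher in 3D, beside 1039.5-fold in hepCLiP. Cps1, the enzyme that starts the urea cycle, had 2 counts over the 3 bilCLiP 2D libraries and reached 85.0, 1412 and 394 CPM in 3D, a ratio of 23235 with an exact 95% interval from 6432 to 191865 for counting error only. In hepCLiP it was at 1.11, 0.591 and 14.1 CPM in 2D and at 1091, 507 and 2387 CPM in 3D. Cyp2e1, a P450 of ethanol metabolism, had 0 counts in bilCLiP 2D and 0.464 to 1.03 CPM in 3D, at least 17.5-fold higher. These bilCLiP levels lay near the floor, and no contrast between origins is read from them. Slco1b2, a bile acid and drug uptake carrier, was at 31.7, 162 and 86.4 CPM in bilCLiP 3D and at 22.2, 41.9 and 9.73 CPM in hepCLiP 3D, with overlapping ranges.

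**Figure D4:**
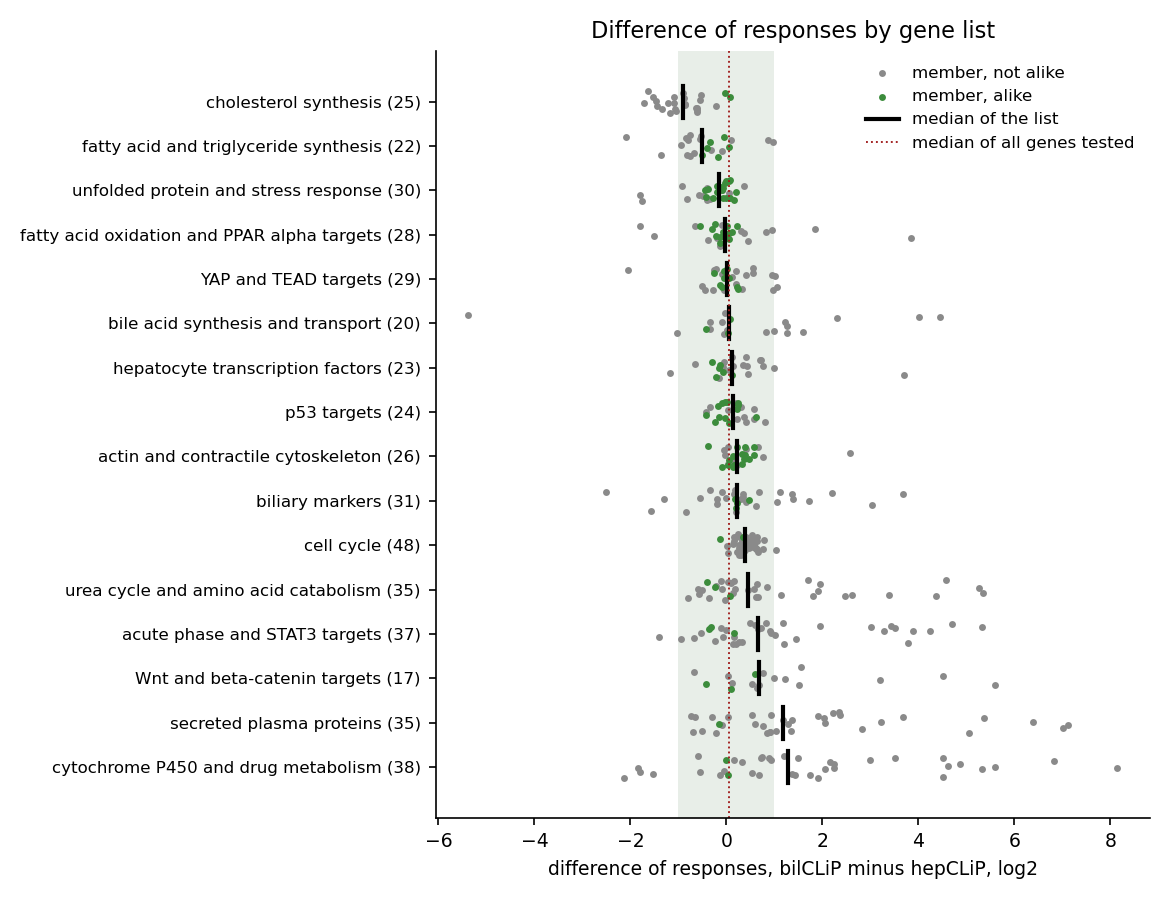
Difference of responses (bilCLiP minus hepCLiP, log2) for each tested member of 16 gene lists, with the list median (bar), the median of all genes (dotted line) and the range of 2-fold either way (shaded). Cholesterol synthesis lies almost wholly below 0, fatty acid oxidation, p53 targets and actin genes crowd around 0, and plasma proteins and P450 genes spread to high values.

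Biliary genes did not follow one pattern. Of 31 tested, 8 were higher and 13 lower in hepCLiP, beside 22.4% and 24.7% of all genes. In bilCLiP 9 were higher and 12 lower, beside 21.7% and 21.5%. Pair values did not overlap, with bilCLiP above, for 9, beside 9.26%. Krt19 fell from 476, 1100 and 1005 CPM to 1.17, 18.7 and 6.32 CPM in hepCLiP. It fell from 507, 541 and 1034 CPM to 1.25, 2.64 and 12.1 CPM in bilCLiP, and the ranges overlapped in both cultures (difference -0.35, 95% interval -2.28 to 1.58). Krt7, its companion keratin, fell by 3.69 ± 0.56 and 1.97 ± 0.51. Sox9, a transcription factor of ducts and progenitors, was called in neither origin (0.11 ± 0.34 and -0.09 ± 0.33). Spp1, osteopontin, rose by 2.50 ± 0.44 and 1.94 ± 0.42. Epcam, an epithelial adhesion molecule of ducts, stayed low, at 0.639 to 3.60 CPM in hepCLiP and 2.22 to 7.48 CPM in bilCLiP, and all 3 hepCLiP estimates by pair were below 0 and all 3 bilCLiP ones above it. Afp, the fetal albumin homologue, rose by 4.32 ± 0.64 and 3.48 ± 0.60.

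Cell cycle genes fell in both origins: 46 of 48 were lower in hepCLiP, beside 24.7% of all genes, and 43 in bilCLiP, beside 21.5%. The difference was above 0 for 47 of 48, beside 57.1% of all genes, with a median of 0.39. However, only 2 of 48 lay above 0 with an unadjusted p under 0.05, beside 5.14% of all genes. Without hepCLiP pair 2 the split was 24 to 24 and the median -0.03, and without bilCLiP pair 3 they were 25 to 23 and 0.05. Without hepCLiP pair 1, or without bilCLiP pair 2, the median was 0.83. Mki67 was at 115, 128 and 167 CPM in hepCLiP 2D and 43.7, 8.02 and 26.6 CPM in 3D. In bilCLiP it was at 116, 107 and 70.8 CPM in 2D and 25.9, 11.4 and 26.9 CPM in 3D, with overlapping ranges in both cultures. Of 17 Wnt and beta-catenin targets, 8 were lower in hepCLiP, beside 24.7% of all genes, and 5 in bilCLiP, beside 21.5%. Of their differences 15 were above 0, beside 57.1% of all genes, and the median was 0.68, beside 0.06. Axin2, the feedback target of this pathway, fell in hepCLiP by 2.19 ± 0.43, with -0.63 ± 0.40 in bilCLiP. Lgr5, a Wnt-amplifying receptor of progenitors, fell in hepCLiP by 4.25 ± 0.83, with -1.04 ± 0.61 in bilCLiP. Myc fell in both, by 2.03 and 1.43, and was alike.

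**Figure D5:**
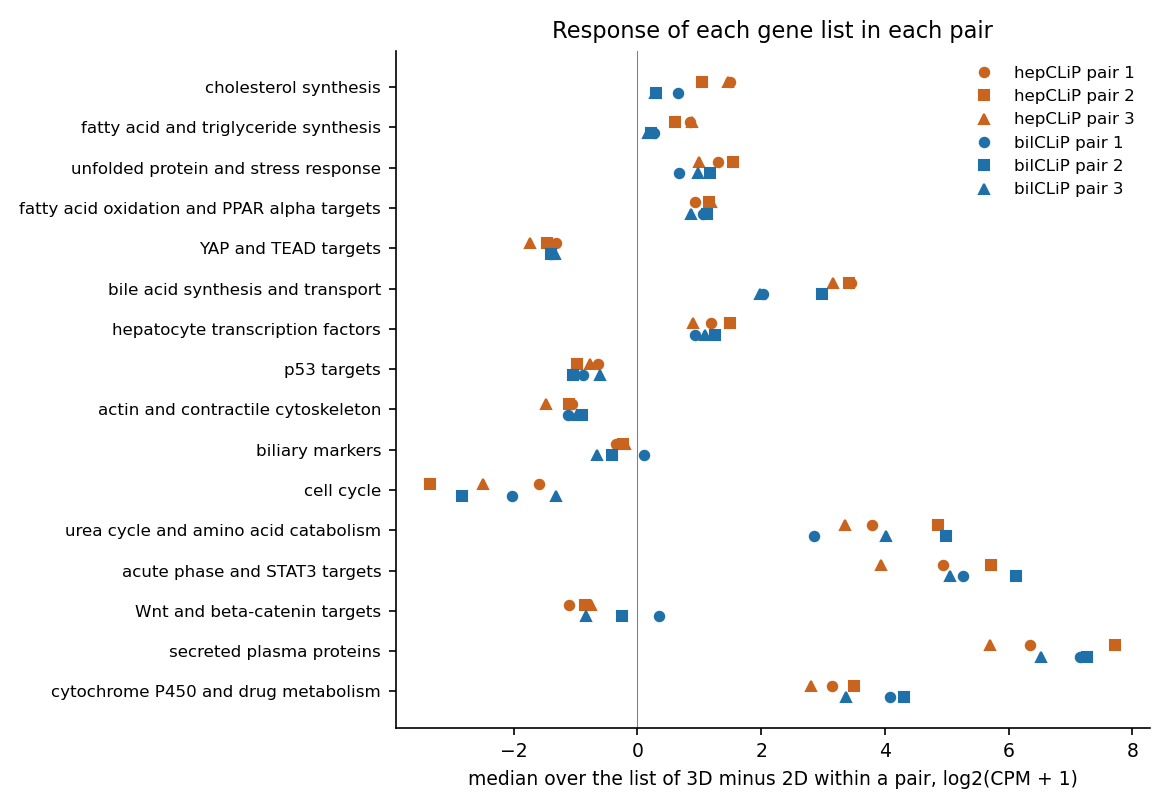
Median over each list of 3D minus 2D within a pair (log2(CPM + 1)), 3 pairs of hepCLiP in orange and 3 of bilCLiP in blue. The pairs of the origins separate for cholesterol synthesis, for fatty acid and triglyceride synthesis and for bile acid genes, and pairs of one origin are spread widely for cell cycle and plasma protein genes.

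Of the 5 genes called in opposite directions, 2 are unnamed gene models. Rpl38, a protein of the large ribosomal subunit, fell in hepCLiP from 239, 295 and 271 CPM to 175, 198 and 227 CPM and rose in bilCLiP from 221, 218 and 167 CPM to 335, 243 and 253 CPM. Rpl37rt, a retrotransposed copy of a ribosomal protein gene whose reads could be shared with its parent, moved the same way at lower levels, by -0.58 ± 0.20 and 0.63 ± 0.20. Asah2, neutral ceramidase, rose in hepCLiP by 0.49 ± 0.15 and fell in bilCLiP by 0.53 ± 0.14. Each of these responses was small, and the edgeR adjusted p of the difference was 0.456 for each of the 3.

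Levels were also compared between the origins within a culture, with group means in place of pairs. By edgeR's adjusted test 20 genes (0.135%) differed between origins in 2D and 15 (0.101%) in 3D, and 7 did so in both, all in one direction. At an unadjusted p under 0.05 there were 2146 genes in 2D and 2461 in 3D. The 7 genes that passed the adjusted test in both cultures were Xist, Sparc, Tm4sf1, Cyba, Kyat3, Dcdc2a and Hapln4, named for that reason. Tm4sf1, a membrane tetraspan protein, was at 0.0925 to 0.200 CPM in hepCLiP 2D and 133 to 451 CPM in bilCLiP 2D, and at 0.142 to 1.18 CPM and 127 to 182 CPM in 3D. Cyba, the p22phox subunit of NADPH oxidases, was at 0.185 CPM or less in hepCLiP and at 8.04 to 23.1 CPM in bilCLiP over both cultures. Dcdc2a, a ciliary protein of bile duct cells, was at 6.80 to 10.3 CPM in hepCLiP 2D and 44.5 to 72.1 CPM in bilCLiP 2D, and it stayed higher in bilCLiP in 3D by 3.87 ± 0.46 (log2). Kyat3, a kynurenine aminotransferase, was higher in hepCLiP, at 48.3 to 121 CPM against 2.05 to 6.37 CPM in 2D and 112 to 231 CPM against 0.986 to 4.59 CPM in 3D. Gata4, a transcription factor of hepatocyte specification, was lower in bilCLiP 2D by 3.40 ± 0.54 (log2, adjusted p = 0.0447 by edgeR). Leaving out any 1 pair changed the count in 2D to between 3 and 116 and that in 3D to between 4 and 633.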

How the data were processed

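Gene counts of 12 libraries were analysed. Per the submitters' processing notes, reads were aligned with STAR 2.7.10b to GRCm39 and counted with featureCounts 2.0.1, and DESeq2 was named without a version. Annotation and strandedness: not given in the sources used here. Therefore overlapping and antisense genes, and near-identical copies (Serpina1, Saa, Cyp and Ces families, ribosomal protein copies), could not be separated. The authors deposited raw counts and a table of normalised values, a signal per gene that equals the counts divided by one constant per library. Genes kept by filterByExpr (14798 of 53599) were fitted with edgeR 4.0.16 in R 4.3.3: TMM scaling, 6 pair terms, a 3D effect for each origin, robust quasi-likelihood, Benjamini-Hochberg adjustment. Same-numbered cultures of one origin deviated from their group means together (correlations 0.432 to 0.513), and the dispersion was 0.0443 with pairs and 0.130 without. Origin gaps within a culture used 4 group means. CPM used TMM-scaled library sizes, and pair values log2(CPM + 1), with a pseudocount of 1. Fitted changes of genes at 0 counts are no bounds, so their folds were set against a floor of 3 counts summed over the group. Intervals of ratios and floors cover counting error only.

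Members and the 36 gene lists were chosen with earlier results of these data known. Named genes were, per direction, up to 8 with the smallest unadjusted p among those with non-overlapping pairs, a group mean of 5 CPM or more and a difference of at least 1 (log2), the 8 alike genes per direction with the largest smaller response, up to 5 opposite genes, up to 3 alike and 3 leaning genes per list, and a fixed marker set. Unnamed gene models were left out, and some items are not reported here. Some further genes were named after their values were seen. DESeq2 1.42.0 and limma 3.58.1 were alternatives, as were other filters, scaling, bounds, libraries left out and RosaYFP libraries only. Promoter sequences are RefSeq's on GRCm38.p6.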

Additional observations from a re-analysis of the deposited data

Results flagged for a closer look

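In 6 of the genes named, all 3 hepCLiP pairs moved one way and all 3 bilCLiP pairs the other. Of the 14798 genes tested, this held for 177 with bilCLiP up and 68 with bilCLiP down. Apart from Epcam, the 6 had been named for non-overlapping pairs or opposite calls, which favours this pattern. The adjusted test of the difference by edgeR called none of the 6. The difference of responses (bilCLiP minus hepCLiP, log2) was 2.54 for Col16a1, 1.29 for Cln6, 1.22 for Rpl37rt, 1.11 for Epcam, 0.88 for Rpl38 and -1.02 for Asah2. The DESeq2 adjusted p was 4.21e-06 for Col16a1, 0.00439 for Cln6, 0.0299 for Asah2, 0.0381 for Rpl38, 0.176 for Rpl37rt and 0.608 for Epcam. In Col16a1, bilCLiP culture 1 was level at 31.0 CPM in 2D and in 3D, so that the sign of that pair rests on a change near 0.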

How the results depend on the processing

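Genes apart numbered 71 with DESeq2, 15 without a low-count filter and 0 to 12 with 1 pair left out (12 without hepCLiP pair 2). Genes alike numbered 1186 at 1.5-fold, 1585 with no replicate block, 581 with RosaYFP libraries only and 1573 to 2124 with 1 pair left out. Without the block on pairs edgeR called 0 genes apart (532 at an unadjusted p under 0.05). HepCLiP calls numbered 2447 with RosaYFP only and 5173 to 6757 with a pair left out, and bilCLiP calls 3939 to 6404 (3939 without bilCLiP pair 2). Opposite genes numbered 0 with no block, 3 with RLE, 3 with DESeq2, 2 without a filter, 3 with RosaYFP only and 1 to 8 with a pair left out. Origin differences numbered 3 to 116 in 2D and 4 to 633 in 3D, and the correlation of responses was 0.869 to 0.898.

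With RosaYFP only, where the lone hepCLiP pair is assumed to vary like the others, median differences were -0.0063 for plasma proteins, 0.17 for P450 genes, -0.51 for cholesterol synthesis, -0.30 for fatty acid and triglyceride synthesis and 1.34 for the cell cycle. The sign turned for Alb (-0.49), Ttr (-0.98), Sox9 (0.60), Spp1 (0.53) and Srebf2 (0.14). With 1 pair left out, medians ran from -1.17 to -0.83 for cholesterol synthesis, from 0.64 to 1.99 for P450 genes, from -0.57 to -0.33 for fatty acid and triglyceride synthesis (-0.40 with at least 50 counts in 3 samples), from -0.20 to 0.015 for fatty acid oxidation and from -0.03 to 0.83 for the cell cycle. Leaving out a pair moved the difference of Krt19 to between -1.003 and 0.41 (above 0 without hepCLiP 2 and, at 0.06, without bilCLiP 1). For Mki67 it lay between -0.23 and 1.04 (below 0 without hepCLiP 2 and, at -0.05, without bilCLiP 3), for Sox9 between -0.60 and 0.21 (above 0 without hepCLiP 3 and, at 0.11, without bilCLiP 3), for Spp1 between -1.10 and 0.022 (above 0 without hepCLiP 3) and for Ttr between -0.29 and 1.69 (below 0 without bilCLiP 1). The causes were not tested. Of 58 genes whose difference was followed, fixed markers included, 51 kept one sign under every alternative run. Many of the 58 had been picked from these same data for non-overlapping pairs or a small p of the difference. That choice favours one sign, so the count of 51 is no separate support. Of 40 alike genes, 7 stayed alike under every alternative run: Acaa2, Agpat2, Ahcy, Ebp, Igf1r, Srebf1 and Stat3. Low counts in bilCLiP 2D limit the plasma protein and P450 differences.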

Other observations

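Cytosolic ribosomal protein genes, a list drawn up by symbol after the opposite calls of Rpl38 and Rpl37rt had been seen, shifted together by a small amount. All 84 were tested. In hepCLiP 16 were lower in 3D, beside 24.7% of all genes, and 0 higher. In bilCLiP 29 were higher, beside 21.7% of all genes, and 0 lower. The estimated difference was above 0 for all 84, with a median of 0.52, from 0.09 for Rpl7l1 to 1.18 for Rps29. Pair values did not overlap, with bilCLiP above, for 62 of 84, beside 9.26% of all genes. By edgeR 0 passed after adjustment, 53 had an unadjusted p under 0.05 above 0, beside 5.14%, and DESeq2 called 4, beside 0.61%. The estimate stayed above 0 for 84 of 84 under RLE scaling (median 0.48), in limma-trend on the normalised table (0.50), with RosaYFP libraries only (0.62) and without hepCLiP pair 2 (0.47). Without bilCLiP pair 1 it was above 0 for 83 of 84 (median 0.39). The summed level overlapped in 2D, at 37226 to 46160 CPM in hepCLiP and 33132 to 44645 CPM in bilCLiP. In 3D it was 33434 to 38208 CPM in hepCLiP and 39134 to 58318 CPM in bilCLiP, without overlap. Pair medians on the log2(CPM + 1) scale were -0.12, -0.31 and -0.20 in hepCLiP and 0.40, 0.06 and 0.32 in bilCLiP. Many of these genes have processed copies in the genome, with which reads could be shared.

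Of 23 transcription factors of hepatocytes tested, 15 were higher in 3D in hepCLiP, beside 22.4% of all genes, and 14 in bilCLiP, beside 21.7%. The difference was above 0 for 13 and below 0 for 10, from -1.17 to 3.71, and its median was 0.11, beside 0.06. Its 95% interval lay inside 2-fold for 43.5% of them, beside 51.9% of all genes, and 6 were alike, beside 19.1%.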
